A study of Homo sapiens with 4 samples.

Results

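CREB5, a transcription factor of the CREB and ATF family, was described here beside 5 of its relatives and 4 coactivators in cisplatin-resistant head and neck squamous cell carcinoma cells. The 10 genes are CREB1, CREB5, CREM, ATF1, ATF2, ATF7, CREBBP, EP300, CRTC2 and CRTC3, chosen by name from the 43305 gene names on the arrays. They are reported by 15 probes. RNA was measured in 4 samples, with 1 one-colour Agilent expression array per sample. The parental cells, HN4 and HN30, are established human HNSCC lines grown in DMEM with FBS, and no drug is named for them. HN4/DDP and HN30/DDP, labelled HN4_CR and HN30_CR, were raised from them in rising steps of cisplatin, a platinum compound that crosslinks DNA. The resistant lines were kept with 20 μM cisplatin in their medium. The labels add 48 h without saying what was timed. Resistance and the presence of the drug cannot be told apart, and each resistant line is 1 selected population.

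CREB and ATF proteins bind DNA as pairs through a basic region and a leucine zipper, many of them at the cAMP response element (CRE). CREB1, CREM and ATF1 form one branch and are switched on when protein kinase A, AKT or other kinases phosphorylate them. They then recruit the acetyltransferases CREBBP and EP300, while the CRTC proteins bind CREB and raise its activity once they enter the nucleus. ATF2, ATF7 and CREB5 form another branch, which can pair with JUN and answers to stress kinases.

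A level below is the log2 signal of a probe minus the 75th percentile of its array, and a difference is the level in resistant cells minus that in parental cells. Levels were compared only within a probe. A gene was called higher when its difference was above 1 and the resistant array showed its probe well above background, and lower when it was below -1 and the parental array did. The SD given with a difference follows from the error that the scanner software reports per spot and leaves out the variation between cultures. Each condition has 1 array, so no difference within a line has a replicate check or a test. The 75th percentile of the signal lay between 444 and 496 and 55.2% to 63.5% of spots were well above background, with the highest share in HN30/DDP.

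All 10 squamous markers were well above background on 3 arrays and 9 on HN30/DDP, where the keratin KRT6A was dim. The log2 of their summed level ran from 7.78 to 8.24 over the arrays, but single markers moved. The basal keratin KRT5 was called lower in both lines (-4.05 and -1.93). KRT6A (3.32), KRT17 (3.29), KRT14 (2.33) and the desmosomal DSG3 (1.84) were called higher in HN4/DDP, and CDH1 (1.34) and ITGB4 (1.26) in HN30/DDP, where KRT6A was called lower. Of the 9 measured markers of leukocytes, endothelium, fibroblasts and smooth muscle, 4 to 7 were well above background, most on HN30/DDP, and the log2 of their summed level ran from -1.18 to 0.50. These sums hold different probes and were not set against those of the squamous list. COL1A2 and DCN were dim on all 4 arrays. COL1A1 was called higher in both lines (1.73 and 2.43), as was VWF (2.43 and 1.49), whose other probes went down to -0.26 and -0.32. VWF was dim on HN4, so its 2.43 is not a measured size. PECAM1 was called lower in HN4/DDP, at least 2.05-fold, and higher in HN30/DDP, at least 1.64-fold. CD3E was called higher in HN30/DDP, at least 1.38-fold, and PTPRC (-0.10 and 0.16), PDGFRB (-0.01 and 0.63) and MYH11 (-0.79 and 0.42) were called in neither line. MYH11 was dim on HN4/DDP and HN30. These marker values are those of the probe that represents each gene, and other probes were given only for VWF. The part of these markers in the results was not tested.

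Of the member probes, 13 were well above background on all arrays. The exceptions were the CREB5 probe, dim on both parental arrays, and an ATF7 probe, dim on all 4. CREB1 had 3 probes, CREM, ATF2 and ATF7 had 2 each, and the other members had 1. The probe sequences that carry the main values are shown by the first 30 of their 60 bases, in the orientation of the scanner files. The CREB5 probe is shown because it alone reports the gene, and the ATF7 and CREM pairs because their probes differed.
CREB5: cttgggaaacgctttggtgcttttctccag
ATF7, bright probe: atatttgttgccaaattccactcttttctg
ATF7, dim probe: agcttgttccatcaagttagggattaatcg
CREM, probe of NM_183013: agattgtattgctgtccttgaatgccatag
CREM, probe of NM_001881: taaacgtagagaaatcctttcacgaagacc
By the hg19 coordinates of the files, the CREB5 probe (NM_182898) lies on the plus strand at chr7:28859103-28859162. The bright ATF7 probe (NM_001206682) lies on the minus strand at chr12:53936714-53936773 and the dim one (NM_006856) at chr12:53909933-53909992. The CREM probe of NM_183013 lies on the plus strand at chr10:35501242-35501301. That of NM_001881 spans chr10:35467876-35468082, which is longer than the probe itself. The files do not say which exon or untranslated region each probe lies in.

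CREB5 was called higher in both resistant lines, with a much larger measured bound in HN4/DDP than in HN30/DDP. Its level was -7.03 in HN4 and -0.39 in HN4/DDP. In the other line it was -6.92 in HN30 and -3.61 in HN30/DDP. The probe was thus near the bottom of the scale on both parental arrays, near the 75th percentile on HN4/DDP, and only a little above the darkest measured signals on HN30/DDP, where the lowest level well above background was -4.94. The difference was 6.64 (scanner SD 1.45) in HN4/DDP and 3.31 (scanner SD 1.46) in HN30/DDP. With the lowest measurable level of the parental array as its upper limit there, CREB5 was at least 20.7-fold higher in HN4/DDP and at least 2.03-fold higher in HN30/DDP. Between the resistant lines, where the probe was measured on both arrays, CREB5 was lower by 3.22 in HN30/DDP (scanner SD 0.24). With the normexp background correction the differences shrank to 2.76 and 0.60, and CREB5 was no longer called in HN30/DDP. In RNA from a whole culture, fewer cells with the transcript and less of it per cell cannot be told apart.

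**Figure D1:**
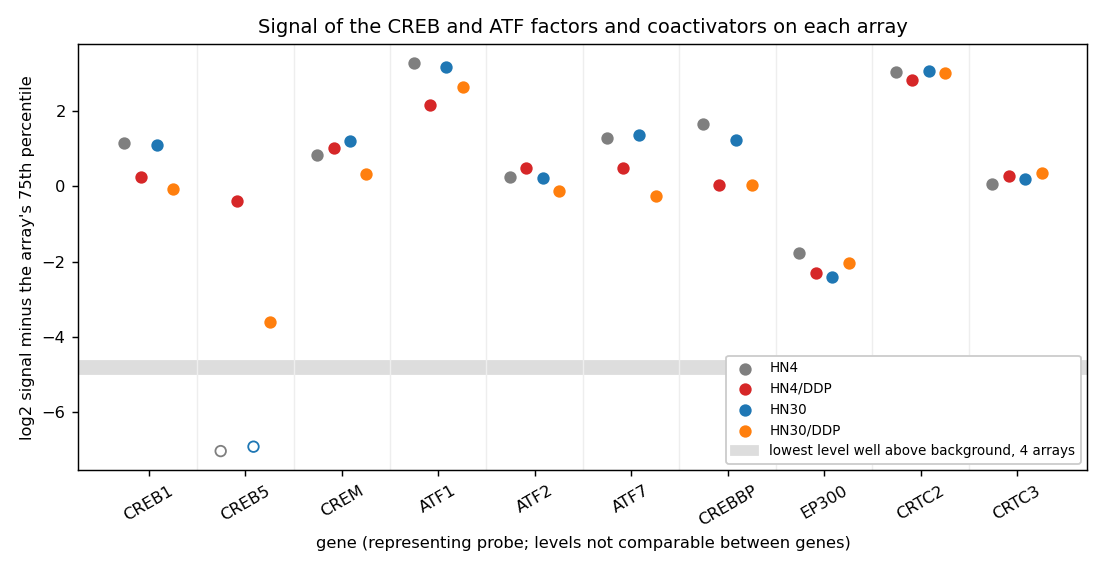
Log2 signal minus the 75th percentile of the array (vertical axis) for the representing probe of each of the 10 genes, 1 point per array and open where the probe was not well above background; the grey band spans the lowest level well above background on the 4 arrays. CREB5 lies below the band on both parental arrays and above it on both resistant arrays, while the other 9 genes stay above the band throughout.

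ATF7 and ATF2, the closest relatives of CREB5, were not called higher in either line. The bright ATF7 probe lay at 1.29 in HN4 and 0.49 in HN4/DDP, and at 1.36 in HN30 and -0.25 in HN30/DDP. Both resistant arrays were below both parental arrays. The difference was -0.79 in HN4/DDP and -1.62 in HN30/DDP (scanner SD 0.20 in each), and ATF7 was called lower in HN30/DDP, where it was 3.06-fold lower. The other ATF7 probe stayed between -7.28 and -6.91 on the 4 arrays and gives no measured change. When the probes of a gene were averaged, the HN30/DDP difference of ATF7 became -0.89 and the call was lost. ATF2, which is activated by stress kinases, lay at 0.26 in HN4 and 0.48 in HN4/DDP, and at 0.23 in HN30 and -0.11 in HN30/DDP. All 4 values lay close together, and the differences of 0.22 and -0.34 were below 2 scanner SDs. Its second probe gave 0.32 and 0.26.

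The branch of CREB1 was lower or little changed. CREB1, the CREB protein of the classical cAMP pathway, lay at 1.15 in HN4 and 0.25 in HN4/DDP, and at 1.09 in HN30 and -0.06 in HN30/DDP. The parental levels were nearly equal and both resistant levels were below them. Its difference was -0.90 in HN4/DDP and -1.15 in HN30/DDP (scanner SD 0.20 in each), so CREB1 was called lower in HN30/DDP, at 2.22-fold. The other 2 CREB1 probes, which share 44 of their 60 bases, gave -0.30 and -0.40 in HN4/DDP and -1.35 and -1.25 in HN30/DDP. All 3 probes were thus past the threshold in HN30/DDP and none in HN4/DDP. ATF1, which pairs with CREB1, was at 3.27 in HN4 and 2.17 in HN4/DDP, and at 3.19 in HN30 and 2.65 in HN30/DDP. Its difference was larger in the HN4 line, at -1.10 against -0.54 in HN30/DDP (scanner SD 0.20 in each), and was called lower in HN4/DDP, at 2.14-fold. CREM, whose gene makes both activators and repressors from several starts, was at 0.84 in HN4 and 1.03 in HN4/DDP, and at 1.22 in HN30 and 0.32 in HN30/DDP. The HN4 pair differed by 0.19 and the HN30 pair by -0.89. The second CREM probe gave 0.14 and -1.31, so CREM in HN30/DDP lay on either side of the threshold depending on the probe. It was called lower there also with median scaling, with the percentile taken over probes, and with the mean of its probes, at -1.31, -1.03 and -1.10.

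**Figure D2:**
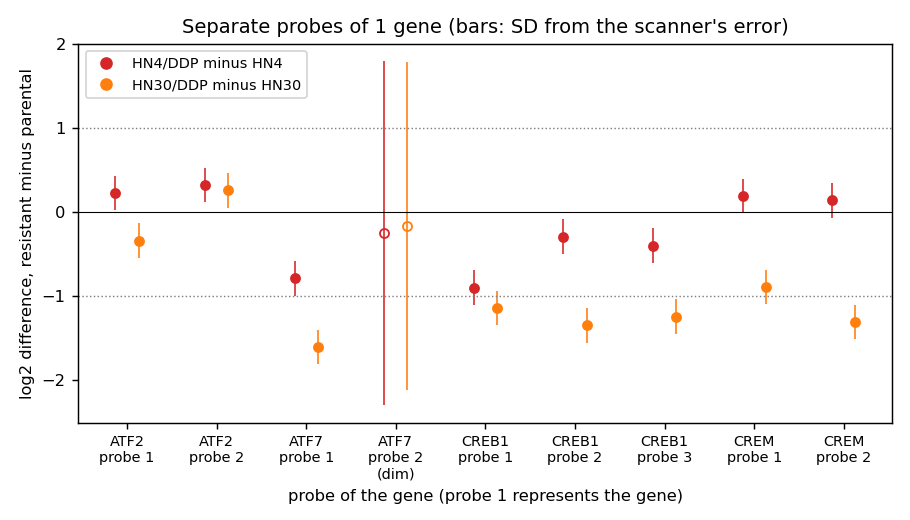
Resistant minus parental log2 difference (vertical axis) for each probe of the 4 genes with more than 1 probe, in the HN4 line and the HN30 line; bars are the SD from the scanner's error and open points mark the ATF7 probe that was dim on all 4 arrays. All CREB1 probes lie below -1 in the HN30 line and above -1 in the HN4 line, and the CREM probes lie at -0.89 and -1.31 in the HN30 line.

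Among the coactivators, CREBBP was lower in both lines and the other 3 were not called. CREBBP, which acetylates histones at genes bound by CREB, lay at 1.66 in HN4 and 0.05 in HN4/DDP, and at 1.24 in HN30 and 0.03 in HN30/DDP. Both resistant arrays were at nearly the same level, below both parental arrays. Its difference was -1.61 in HN4/DDP and -1.20 in HN30/DDP (scanner SD 0.20 in each), which is 3.06-fold and 2.31-fold lower. The call held in both lines under the 9 alternatives in how values were made, from -1.62 to -1.52 in HN4/DDP and from -1.62 to -1.05 in HN30/DDP. Its paralog EP300 was at -1.76 in HN4 and -2.29 in HN4/DDP, and at -2.41 in HN30 and -2.04 in HN30/DDP. The differences of EP300 ran in opposite directions, -0.53 and 0.37, and median scaling turned the second to -0.05. CRTC2, the CRTC protein known for CREB activity in liver, was at 3.03, 2.83, 3.07 and 3.03 in HN4, HN4/DDP, HN30 and HN30/DDP. CRTC3 was at 0.07, 0.28, 0.20 and 0.35 in the same order. The CRTC differences stayed between -0.20 and 0.21, within about 1 scanner SD, and their sign in HN30/DDP turned with the scaling. The CRTC2 probe is printed in 10 spots, whose SD on an array was 0.01 to 0.03.

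**Figure D3:**
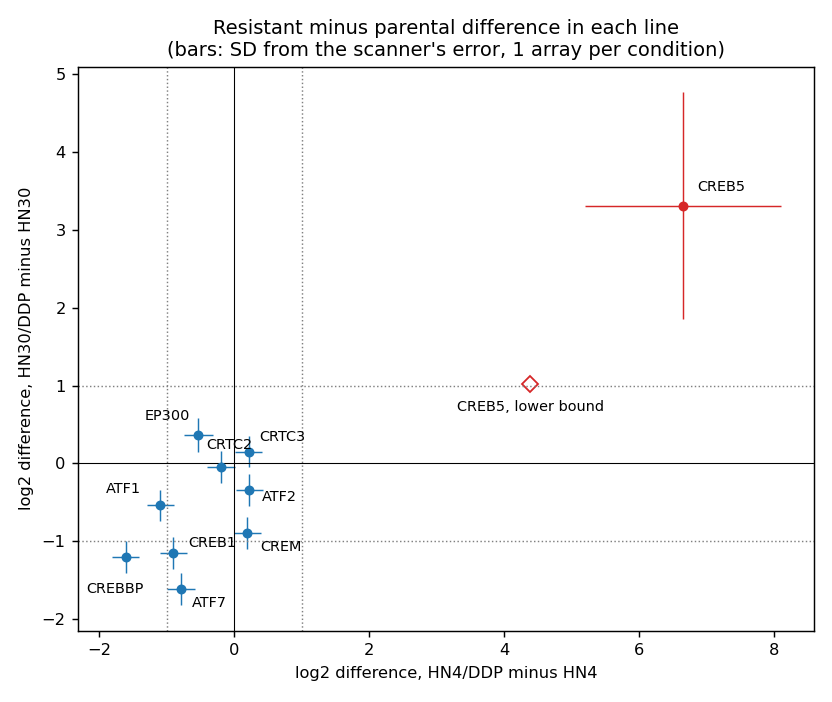
Log2 difference of each gene in HN4/DDP against HN4 (horizontal axis) and in HN30/DDP against HN30 (vertical axis), with bars for the SD from the scanner's error, dotted lines at -1 and 1 and a diamond at the lower bound for CREB5. CREB5 lies alone at the upper right, CREBBP is past -1 in both lines, and the remaining 8 genes are past -1 in at most 1 line.

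Counted together, 1 of the 10 genes was called higher in HN4/DDP (CREB5) and 2 were called lower (ATF1 and CREBBP). Over the 26853 genes measured above background on either array of the pair, 9.31% were called higher and 8.65% lower. In HN30/DDP, CREB5 was again the 1 gene called higher and 3 were called lower (CREB1, ATF7 and CREBBP), against 19.8% higher and 13.3% lower among 28330 genes. Median scaling moved that split from 5605 higher and 3756 lower genes to 3861 and 6769. Among genes with a messenger RNA accession, as all members have, 16.5% and 17.6% were called in that line. Called in the same direction in both lines were CREB5 among the higher and CREBBP among the lower, against 4.49% and 1.99% of 25662 genes. The paper had drawn CREB5 from genes raised in both resistant lines. Its own calls in these counts were therefore known beforehand and lend the group no weight. No member was past the threshold in opposite directions, as 2.13% of those genes were. With 10 genes, counts this small do not set the group apart from the arrays as a whole. The median difference of the members was -0.37 in HN4/DDP and -0.44 in HN30/DDP, beside -0.08 and 0.06 over all genes. Over genes with a messenger RNA accession the medians were -0.04 and -0.11. Without CREB5, the 9 others ranged from -1.61 to 0.22 and from -1.62 to 0.37, with 6 and 7 of them below 0.

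Between parental HN30 and parental HN4, the 9 genes other than CREB5 differed by -0.64 to 0.38, and none was called, while 3.32% of all genes were called higher in HN30 and 7.08% lower. Between HN30/DDP and HN4/DDP they differed by -0.75 to 0.47 and none was called, against 16.4% and 10.4% of all genes, though median scaling called CREM (-1.06) and ATF7 (-1.10) lower. CREB5 was called lower in that comparison under all 9 alternatives, from -3.57 to -2.10.

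The only contrast with more than 1 array on each side sets both resistant arrays against both parental arrays and takes the cell line as a block. This limma fit called 0 of 29521 genes at an adjusted p under 0.05, with 2537 genes at an unadjusted p under 0.05. It rests on 1 residual degree of freedom, so a count of 0 does not show that no gene changed. CREB5 entered the fit only through the resistant arrays, since both parental signals of its probe were dim. Its fitted difference of 4.98 is therefore not a measured size, and no test is drawn from it here. That difference was 1.68 with normexp and 2.85 with a pseudocount of 16. Among the 9 members measured on all 4 arrays, CREBBP had the lowest p, at a difference of -1.41 (SE 0.41, limma adjusted p = 0.516), lower in 2 of 2 lines. ATF7 followed with -1.20 and CREB1 with -1.03, with limma adjusted p of 0.578 and 0.591. The other 6 members had adjusted p between 0.667 and 0.979. None of the 9 members measured on all 4 arrays passed the test.

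Further CREB and ATF factors, 16 in number, were measured on all 4 arrays. In HN4/DDP 3 were called higher and 1 lower, against 9.31% and 8.65% of all genes. In HN30/DDP 4 were higher and 2 lower, where 25% and 12.5% of the list stand beside 19.8% and 13.3%. The medians were -0.02 and -0.15. ATF3, a factor switched on by many stresses, was at 2.38 in HN4 and 3.85 in HN4/DDP, and at 1.69 in HN30 and 3.79 in HN30/DDP, a difference of 1.47 and 2.10. BATF2, an interferon-inducible factor that pairs with JUN proteins, was at -3.49, 2.02, -2.95 and -1.30 in the same order. Its differences of 5.52 and 1.65 put it with ATF3 as the only factors of this list called higher in both lines. Unlike CREB5, BATF2 was well above background on all 4 arrays. The 4 ATF3 probes differed, ranging from 0.17 to 1.69 in HN4/DDP and from 0.01 to 2.10 in HN30/DDP. JDP2, which represses AP-1 sites, went in opposite directions, -1.67 in HN4/DDP and 1.63 in HN30/DDP. BATF3 was called higher in HN4/DDP (1.21, against -0.32 in HN30/DDP), and CREBZF, a partner of host cell factor, in HN30/DDP (1.36, against -0.36). ATF5 and ATF6, both tied to stress of unfolded proteins, were called lower in HN30/DDP, at -3.04 and -1.09, beside -0.50 and 0.00 in HN4/DDP. Quantile normalization, the removal of a trend with brightness and the deposited values each ended the ATF6 call. Normexp ended the BATF2 call in HN30/DDP, at 0.99, and median scaling that of CREBZF, at 0.94. The remaining 9, which are CREB3, CREB3L1, CREB3L2, CREB3L3, CREB3L4, CREBL2, ATF4, ATF6B and BATF, lay between -0.87 and 0.82 and were not called. Among them, 3 alternatives called CREB3L4 higher in HN30/DDP, at up to 1.12, and median scaling called CREB3, ATF6B and BATF lower there, as the percentile over probes did ATF6B. A second CREB3L2 probe gave 1.06 in HN4/DDP. ATF4, the main factor of the integrated stress response, was bright and flat, at 7.98, 7.65, 7.76 and 7.76.

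**Figure D4:**
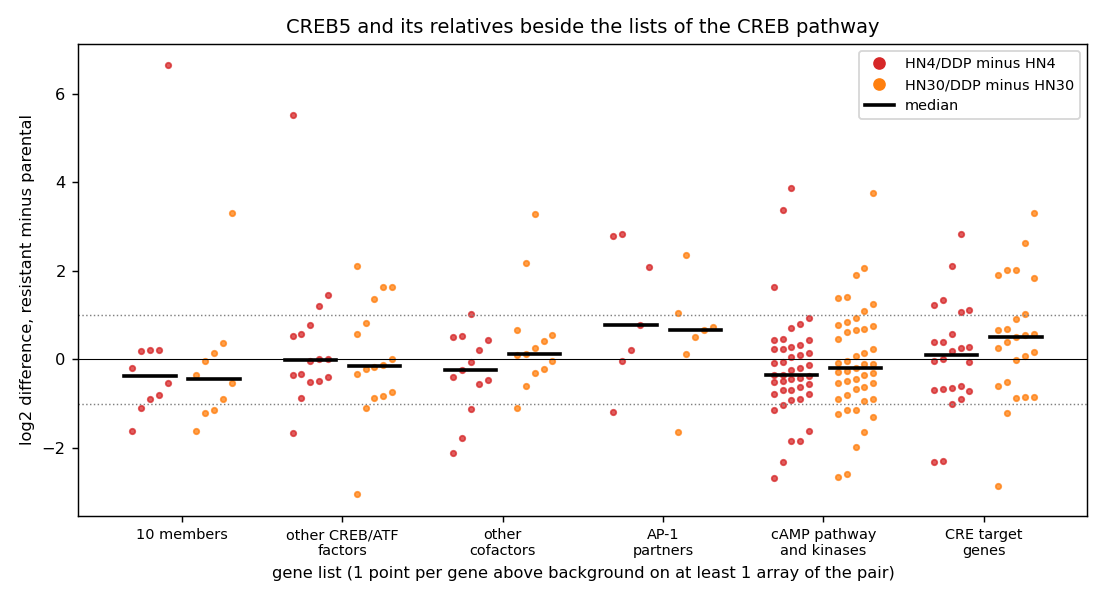
Resistant minus parental log2 difference (vertical axis) of each gene measured above background on either array of the pair, in the 10 members and 5 lists of related genes, for the HN4 line and the HN30 line; black bars are medians and dotted lines mark -1 and 1. BATF2 at 5.52 stands highest in the HN4 line among genes measured on both arrays, CREB5 is drawn at 6.64 although only a rise of at least 20.7-fold was measured, and the AP-1 list has the highest medians of the lists in both lines.

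Of 13 other cofactors of CREB measured in HN4/DDP, 1 was called higher and 3 lower, which is 7.69% and 23.1% beside 9.31% and 8.65% of all genes. In HN30/DDP 2 were higher and 1 lower, 15.4% and 7.69% beside 19.8% and 13.3%. HDAC5, a class II deacetylase, was higher in both lines, from -0.31 to 0.72 in the HN4 line and from -1.28 to 0.91 in the HN30 line. Its HN4/DDP difference of 1.03 fell to 0.91 with normexp. CRTC1, the CRTC protein best known from neurons, was at 0.62 in HN4 and -0.51 in HN4/DDP, and at -0.12 in HN30 and 3.17 in HN30/DDP. Its differences of -1.13 and 3.29 thus opposed each other, unlike the flat CRTC2 and CRTC3, and its second probe gave -0.46 and -0.20. The mean of its probes ended the CRTC1 call in HN4/DDP. The deacetylase HDAC4 (-2.11) and the corepressor NCOR1 (-1.76) were the lowest of the list in HN4/DDP, and HDAC1 was called lower in HN30/DDP (-1.10). Averaging its 3 probes brought NCOR1 to -0.72, and the same 3 settings as for ATF6 ended the HDAC1 call. FHL2, a coactivator of the LIM domain class, differed by 0.52 and 0.66 and was not called. Its 3 probes ran from -0.42 to 0.66 in HN4/DDP and from 0.61 to 1.21 in HN30/DDP, and 3 alternatives called it higher in the latter, at up to 1.23.

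AP-1 proteins include the JUN and FOS partners with which the branch of ATF2, ATF7 and CREB5 can pair. Of 7 genes, 3 were called higher and 1 lower in HN4/DDP, which is 42.9% and 14.3% beside 9.31% and 8.65% of all genes. In HN30/DDP 2 were higher and 1 lower, 28.6% and 14.3% beside 19.8% and 13.3%. The median difference was 0.78 and 0.67, beside -0.08 and 0.06 over all genes and -0.04 and -0.11 over genes with a messenger RNA accession. FOSB was at -3.35 in HN4 and -0.56 in HN4/DDP, and at -2.79 in HN30 and -0.42 in HN30/DDP. It was the only AP-1 gene called higher in both, by 2.79 and 2.37. FOS and JUN were called higher in HN4/DDP only, by 2.84 and 2.08, beside 0.67 and 0.12 in HN30/DDP. The difference of these genes between the lines was not tested. FOSL2 was lower in HN4/DDP, at -1.18, and higher by 1.04 in HN30/DDP, and normexp ended the first call, at -0.91, and 6 alternatives the second. FOSL1 was called lower in HN30/DDP (-1.64), and JUNB and JUND were called in neither line.

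The genes that make, break down and relay cAMP, and the kinases and phosphatases that act on CREB or the CRTC proteins, had medians below 0 in both lines, -0.34 and -0.20. Of 43 measured in HN4/DDP, 3 were called higher and 7 lower, or 6.98% and 16.3% against 9.31% and 8.65% of all genes. Of 45 in HN30/DDP, 7 were higher and 8 lower, or 15.6% and 17.8% against 19.8% and 13.3%. No gene of the list was called lower in both lines. PKIB, an inhibitor of protein kinase A, was dim on both parental arrays and was higher by at least 5.37-fold in the HN4 line and at least 2.74-fold in the HN30 line. Its levels were -6.21, -2.34, -6.93 and -3.17 in HN4, HN4/DDP, HN30 and HN30/DDP. The other PKIB probe did not show this, at 0.11 and -1.19, and normexp left 0.72 in HN30/DDP. PDE4C, a phosphodiesterase that destroys cAMP, was higher by 1.65 and 1.26, and normexp ended both calls and 4 further alternatives the second. In HN4/DDP the inhibitor PKIA (-2.68) and the adenylyl cyclase ADCY1 (-2.33) were lowest. In HN30/DDP the phosphodiesterase PDE4A was higher by 2.07, PDE4B was at least 2.57-fold lower, and the CREB kinase RPS6KA4 was lower, at -2.59. Another PDE4A probe gave 0.34, and normexp ended the PDE4B call. The catalytic kinase subunit PRKACA differed by 0.10 and -0.10. Another catalytic subunit, PRKACB, was called lower in HN4/DDP, at -1.85, beside -0.63 in HN30/DDP. Its 3 probes ran from -1.85 to 0.42 in HN4/DDP and from -0.63 to 2.14 in HN30/DDP.

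Known CRE target genes gave mixed values. Of 24 measured in HN4/DDP, 6 were called higher and 2 lower, so 25% and 8.33% of the list compare with 9.31% and 8.65% of all genes. Of 25 in HN30/DDP, 7 were higher and 2 lower, so 28% and 8% compare with 19.8% and 13.3%. The medians were 0.10 and 0.51. NR4A3, an immediate early nuclear receptor, was the only one called higher in both lines, from -4.23 to -3.00 in the HN4 line and from -4.31 to -2.39 in the HN30 line. Its second probe gave -0.26 and -0.31. Normexp and the mean of the probes each ended both calls, and a pseudocount of 16 ended the first. FOS (2.84) and EGR1 (2.11), which respond to growth signals within minutes, were highest in HN4/DDP, and IL6 (-2.32) and BDNF (-2.30) lowest. The second IL6 probe gave -0.35 and that of BDNF -3.93. EGR1 opposed this in HN30/DDP with -1.21. In HN30/DDP the coactivator PPARGC1A, dim in HN30, was at least 2.03-fold higher. The inhibin subunit INHA was higher by 2.62 there, and the cyclin CCNA2 was lower, at -2.86. Quantile normalization, the removal of a trend with brightness and the deposited values each ended the EGR1 call in HN30/DDP, and normexp ended that of PPARGC1A.

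The chromosomal surroundings of CREB5 were read from the hg19 coordinates of the probes. Within 1 Mb on either side of the CREB5 probe lay 31 probes of 24 other genes. In HN4/DDP 24 of them were well above background on an array of the pair, and 1 was called higher and 8 lower, or 4.17% and 33.3% beside 9.7% and 8.78% of the 34266 such probes of all genes. In HN30/DDP 25 were, with 8 higher and 2 lower, or 32% and 8% beside 20.3% and 13.6% of 36212 probes. Several of these probes report the same gene. A single neighbouring probe was called higher in both lines. It reports LOC401317 (BC087859), on the same strand at chr7:28450137-28450196, which is 408966 bases before the CREB5 probe. It lay at -6.79 in HN4 and -2.15 in HN4/DDP, and at -6.33 in HN30 and -4.75 in HN30/DDP, so that it was at least 6.11-fold higher in HN4/DDP. No bound above 1 can be given in the HN30 line, and 3 alternatives ended the call there. The nearest probe, that of lnc-CPVL-3 10027 bases away on the other strand, was dim on all 4 arrays. The transcript ENST00000461824, 329111 bases after the CREB5 probe, was called lower in both lines, at least 3.30-fold and 2.23-fold. Normexp ended both of these calls, at -0.63 and -0.43, and a pseudocount of 16 the one in HN30/DDP.

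On the side of CREB5 away from LOC401317, 3 neighbours had calls in opposite directions in the lines. CHN2, which encodes a GTPase-activating protein for RAC, was at -0.14 in HN4 and -5.17 in HN4/DDP, and at -5.26 in HN30 and -1.24 in HN30/DDP. That is at least 28.9-fold lower in HN4/DDP and at least 10.5-fold higher in HN30/DDP. Its other probes gave -0.89 and -0.90 in HN4/DDP, neither of them called, and 0.33 and 1.37 in HN30/DDP, of which the second was called higher. TRIL, a component of Toll-like receptor signalling, was lower in HN4/DDP, at least 2.16-fold, and higher in HN30/DDP, at least 3.40-fold. The probe of lnc-CPVL-4 that represents that gene gave -2.37 and 1.95. Normexp ended both TRIL calls, and a pseudocount of 16 the one in HN4/DDP. Other calls in HN4/DDP were all downward, in the carboxypeptidase CPVL (-2.54), PRR15 (-2.12), XLOC_l2_013330 (-1.19) and 1 probe of LOC646762 (-1.10). In HN30/DDP both probes of LOC100506497 (1.68 and 1.99) and 1 of ENST00000436594 (1.33) were called higher, all of them dim on HN30. Measured were bounds of at least 3.03-fold and 1.55-fold for LOC100506497. For ENST00000436594 no bound above 1 can be given. ENST00000482002, which lies 540067 bases before the CREB5 probe, was called lower (-1.41). Normexp ended the call of the first LOC100506497 probe, at 0.49. The ENST00000436594 call was lost under 4 of the 9 alternatives and that of ENST00000482002 under 3.

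**Figure D5:**
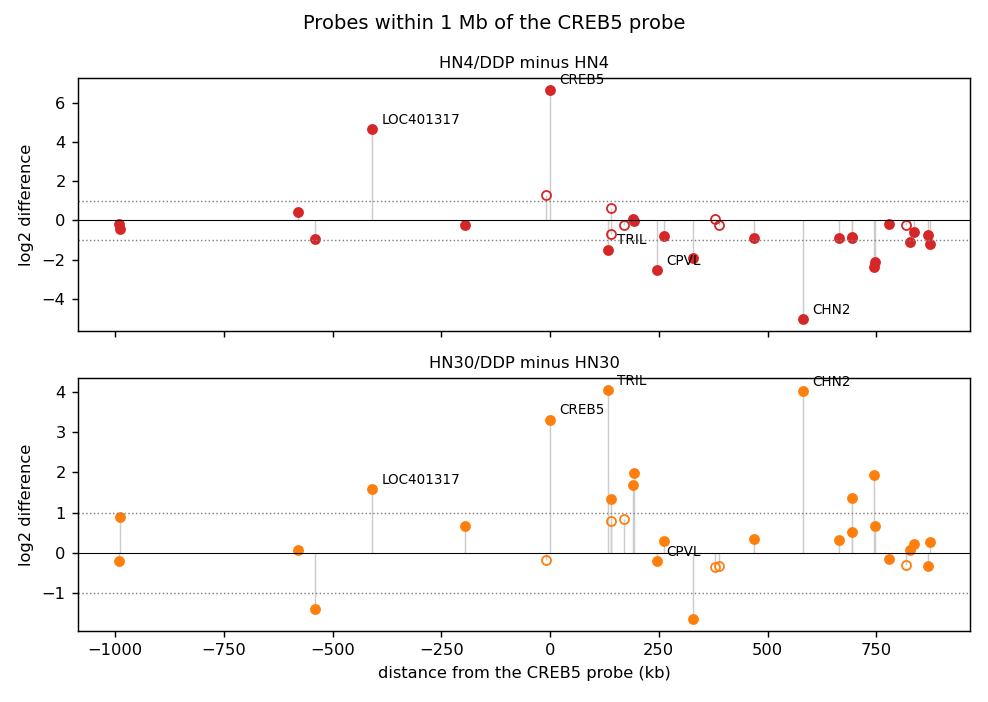
Resistant minus parental log2 difference (vertical axes) of each probe within 1 Mb of the CREB5 probe against its distance from that probe in kb, in the HN4 line (top) and the HN30 line (bottom); open points were not well above background on either array of the pair. CREB5 and LOC401317 are above 1 in both panels. By contrast, TRIL and the CHN2 probe that represents its gene are below -1 in the top panel and above 1 in the bottom panel.

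Genes with the pattern most like that of CREB5 were sought over the 4 arrays among 18226 genes with a messenger RNA accession, by the Euclidean distance between mean-centred levels with dim levels at the lowest level well above background. The 3 nearest were ENPP1 at a distance of 0.31, THSD7A at 0.37 and GDF1 at 0.42. ENPP1, an enzyme that hydrolyses extracellular nucleotides, was at least 19.0-fold higher in HN4/DDP and at least 1.56-fold higher in HN30/DDP. GDF1, a growth factor of the TGF-beta family, was higher in the same order by at least 24.6-fold and 1.60-fold. THSD7A, a membrane protein with thrombospondin repeats, was measured on all 4 arrays. Its differences were 3.88 and 0.90, so it was called higher in HN4/DDP only. All 3 were thus brightest in HN4/DDP, dimmer in HN30/DDP and lowest in the parental lines, as CREB5 was. With 4 arrays this likeness is a description.

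The RefSeq promoter table (GRCh38.p14) was searched for the letters of the CRE in the 250 bases before each listed start, on both strands. It holds 21 starts of 8 members, among them 3 of CREB5. ATF2 and CRTC2 have no entry. The full palindrome TGACGTCA lay before 1 of the 21 starts, a start of CREM, and before 1.65% of all 35116 listed starts. The shorter TGACG or its complement CGTCA, which the palindrome contains, lay before 5 starts of 4 members (CREM, ATF7, CREBBP and CRTC3) and before 21.2% of all starts. None of the CREB5 starts had either. After the CREB5 sequences had been read, the AP-1 letters TGACTCA and TGAGTCA were searched as well. They lay before 1 start of CREB5 and before 4.20% of all starts. Both windows are given 5′ to 3′ with the matched letters in capitals, because CREM holds the only CRE of the set and CREB5 the only AP-1 match.
CREM, plus strand, chr10:35195841-35195870: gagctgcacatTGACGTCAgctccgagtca
CREB5, plus strand, chr7:28686078-28686107: tgggaaggataTGACTCActcaagctagtt
The CREM match begins 50 bases before its start and the CREB5 match 44 bases before its start. A match is a run of letters and no measure of binding, and its absence from these windows says nothing of a factor. The arrays do not tell which start a transcript used.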

How the data were processed

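The 10 genes and the gene lists were chosen with earlier results of these data known. RNA was isolated with the mirVana kit and labelled with Cy3, and the chip work was done by a company. Per the file headers, the processed intensity per spot that the authors deposited for each array was made by Agilent Feature Extraction 10.7.1.1 (background subtracted, probe coordinates on hg19). A second deposited table holds log2 values with nearly equal array medians (4.66); this scale was read from the values, and its making is not described in the paper or the labels. Slide and scan were shared by all arrays.

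From 60901 spots that are not controls, log2 intensity minus the 75th percentile of the array was computed, spots marked as outliers (140 to 204 per array) were left out of the values, and spots of a probe were averaged. Where a gene had several probes, the one with the highest mean stood for it. Where a probe was dim on one side, the fold is a bound set by the lowest level well above background on that array (-4.99 to -4.63). The number of arrays limits the precision. Named were all members, all further CREB and ATF factors, the genes of each other list called alike in both lines, the 2 largest rises and falls of each list in each line, genes near CREB5 called in either line, and the 3 genes most like it. Of 67 such genes, 61 matched RefSeq (GRCh38.p14) by accession; there LOC100506497 is CPVL-AS2 and LOC646762 is MIR550A3HG. PRKACA, PRKACB, JUN, JUND and the second probes of named genes were added after their values were seen. A gene that this rule names is not reported here.

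The contrast over both lines used limma 3.58.1 in R 4.3.3 (lmFit, then eBayes with a trend) with Benjamini-Hochberg adjustment over all genes above background on any array; it and the counting were tested on simulated data. Python 3.11.15 with numpy 2.4.6, pandas 2.3.3 and matplotlib 3.10.9 did the rest. Proteins were not analysed here.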

Additional observations from a re-analysis of the deposited data

Results flagged for a closer look

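In the gene lists, the marker lists and near CREB5, 9 genes were past the threshold in opposite directions in the lines. With 1 array per condition this opposition was not tested. The value given is the log2 difference in HN30/DDP minus that in HN4/DDP. It was 9.05 for CHN2, 5.55 for TRIL and 4.32 for lnc-CPVL-4, which all lie within 1 Mb of CREB5. The CHN2 and TRIL probes were dim on HN4/DDP and HN30, so their values rest on signals with no order and only the bounds given for them are measured. It was 4.42 for CRTC1, whose second probe was past the threshold in neither line. For the bZIP genes JDP2 and FOSL2 it was 3.30 and 2.22. For EGR1 it was -3.32. Among the markers it was -11.77 for the keratin KRT6A, which was higher by 3.32 in HN4/DDP and at least 183-fold lower in HN30/DDP, where it was dim. For the endothelial marker PECAM1, dim on HN4/DDP and HN30, it was 3.98, with bounds of 2.05-fold lower in HN4/DDP and 1.64-fold higher in HN30/DDP. Over all 25662 genes measured above background on either array of each pair, 2.13% were past the threshold in opposite directions. None of the 10 members was.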

How the results depend on the processing

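The differences of the members were recomputed under 9 alternatives of background correction, scaling, pseudocount, dim probes, probe choice and deposited values; the 75th percentile over probes, and all alternatives between HN30/DDP and HN4/DDP, were added after seeing the data. No called difference of a member changed sign. Of 18 alternative values of CREB5 in resistant against parental cells, 6 moved by more than the scanner SD. In HN4/DDP they were 2.76 with normexp, 4.31 with a pseudocount of 16 and 4.37 with dim signals at the lowest level above background, and in HN30/DDP 0.60, 1.39 and 1.02. These settings raise the dim parental signal by construction. Members called higher fell to 0 in HN30/DDP with normexp, and to 0 in both lines when both arrays of a pair had to be well above background. With a log2 threshold of 2, 0 members were lower in either line. The 75th percentile over probes and median scaling each called 4 members lower in HN30/DDP, in place of 3.

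Over all genes, calls higher and lower numbered 2500 and 2322 in HN4/DDP and 5605 and 3756 in HN30/DDP. Normexp gave 1100 higher and 1045 lower in HN4/DDP and 2331 higher in HN30/DDP. Both arrays well above background gave 1480 and 3165 higher, and the threshold of 2 gave 970 and 590 in HN4/DDP and 2371 and 779 in HN30/DDP. Median scaling gave 6769 lower in HN30/DDP, with 36.3% of calls higher in place of 59.9%; normexp gave 46.6%, and both arrays well above background 49.0%. Median scaling shifted the median of all genes in HN30/DDP by -0.42, quantile normalization by -0.12, the deposited values by -0.12 and the percentile over probes by -0.13. Relative to these shifts the falls of CREBBP, CREB1 and ATF7 there kept their direction. The limma count stayed at 0 under 6 alternatives, with 1957 to 3261 genes at an unadjusted p under 0.05. The median of the other cofactors in HN30/DDP ran from -0.29 to 0.51. No paired analysis was possible because the replicate number is 1 in every group, beyond the pairing by cell line that the limma fit holds as its block; without that block 0 genes passed and 3261 had an unadjusted p under 0.05. Depth is not defined for arrays; signals below the lowest level well above background have no order.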
